A study of Mus musculus with 9 samples.

Results

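MIN6 libraries made by 2 protocols, v1.5-GAIIx and TS-GAIIx, were compared for the forms in which small RNAs were read: their lengths, 3′ ends, mismatches, hairpin arms, family members and non-miRNA sources. These are 6 of the 9 samples of the series, chosen by their labels as the 3 V1.5 and the 3 TruSeq libraries of MIN6. MIN6 is a mouse insulinoma line used as a model of insulin-secreting beta cells, and all 6 libraries came from cells grown in DMEM with 25 mM glucose and heat-inactivated fetal bovine serum. No genetic change or treatment separated the groups, which differed by the Illumina library kit: v1.5, with a fixed pair of adapters, or TruSeq, the later kit with another fixed pair. Both sets were single-end libraries run on the GAIIx. The methods of the study give TRIzol for RNA prepared at the NIH and place the sequencing of both sets at its centre, so RNA isolation was not stated to differ between them. The study called the libraries of a method biological replicates, whereas the labels give only replicate numbers, so p-values measure the spread between these libraries, part of which may be technical.

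A miRNA is cut from a hairpin precursor, first by Drosha and then by Dicer, and the resulting duplex has a 5p and a 3p strand. Usually a single strand is loaded into Argonaute, where the seed near its 5′ end selects targets. The 3′ end varies among molecules of a single miRNA, because Dicer cuts imprecisely, exonucleases trim, and terminal transferases add untemplated A or U. Small RNA-seq reads such forms only after an adapter has been ligated to each end of the RNA.

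The mature sequences below carry the main differences in read form, and they are shown because the bases at their 3′ ends are those compared. They are RefSeq sequences on GRCm38.p6, 5′ to 3′, with the seed (bases 2 to 8) in capitals. The first group lists abundant miRNAs and some of those whose length differed much. The later groups share a seed within each of 4 families whose members moved apart.
miR-879-5p: aGAGGCUUauagcucuaagcc
miR-27b-3p: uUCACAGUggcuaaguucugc
miR-27a-3p: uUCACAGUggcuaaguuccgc
miR-26a-5p: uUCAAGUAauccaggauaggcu
miR-30e-5p: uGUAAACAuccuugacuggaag
miR-137-3p: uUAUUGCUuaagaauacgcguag
miR-141-3p: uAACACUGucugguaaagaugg
miR-200a-3p: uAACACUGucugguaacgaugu
miR-200b-3p: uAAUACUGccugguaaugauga
miR-200c-3p: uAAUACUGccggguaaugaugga
miR-429-3p: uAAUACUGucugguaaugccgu
miR-29a-3p: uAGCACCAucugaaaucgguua
miR-29b-3p: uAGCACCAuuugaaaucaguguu
miR-29c-3p: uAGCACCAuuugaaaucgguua
miR-125a-5p: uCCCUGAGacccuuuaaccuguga
miR-125b-5p: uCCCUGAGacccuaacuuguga
The seed AACACUG is shared by miR-141 and miR-200a, and AAUACUG by miR-200b, miR-200c and miR-429. The mature strand of Mir141 lies at chr6:124717917-124717938 (minus strand) and that of Mir200c at chr6:124718324-124718346 (minus strand). Mir200a, Mir200b and Mir429 are on chromosome 4. Mir879 lies at chr5:9375714-9375734 (plus strand), Mir27b at chr13:63300760-63300780 (plus strand) and Mir30e at chr4:120772660-120772681 (minus strand).

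Depth is given as the sum of expected counts, for which reads that aligned equally well to more than 1 place were split between those places. These sums ranged from 6923460 to 13158900, with the 2 lowest in TS-GAIIx-1 and TS-GAIIx-2. Levels are given as RPMM, counts divided by the mapped reads of the library and scaled to 1e6 such reads. Of 381 measured miRNAs, 258 had at least 100 reads in each library and entered the tests on read forms. The beta cell and islet markers (miR-375, miR-7a, the miR-200 group, miR-184 and miR-129) were measured for 9 of 9 names and summed to 188390 to 211900 RPMM in TS-GAIIx and 158520 to 178730 in v1.5-GAIIx. The lower sum came from miR-375 alone, at 163130 to 186340 against 72820 to 87331 RPMM, while the other 8 were higher in v1.5-GAIIx, and none of the 9 overlapped. The endothelial miR-126, both arms summed, stood at 129 to 139 and 263 to 287 RPMM, and no marker of hepatocytes, blood cells, muscle or fibroblasts was among the measured names. TS-GAIIx-1, TS-GAIIx-2 and v1.5-GAIIx-1 stood apart in mismatches inside the read, given below.

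Reads at miRNA loci were slightly longer in v1.5-GAIIx, and reads from elsewhere in the nuclear genome were much longer. Mean length at miRNA loci was 22.0, 22.0 and 22.0 nt in TS-GAIIx and 22.2, 22.2 and 22.2 nt in v1.5-GAIIx, a difference of 0.144 nt. Other nuclear reads had mean lengths of 17.4, 17.9 and 17.4 nt in TS-GAIIx and 21.5, 21.2 and 22.2 nt in v1.5-GAIIx. Mitochondrial reads averaged 21.6, 22.0 and 21.3 nt against 23.6, 23.2 and 23.5 nt. The groups did not overlap in any of the 3 classes, and the two-sided exact permutation test gave p = 0.1, the smallest that 3 libraries against 3 can give. This p also holds for every other single value whose groups are described as not overlapping.

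**Figure D1:**
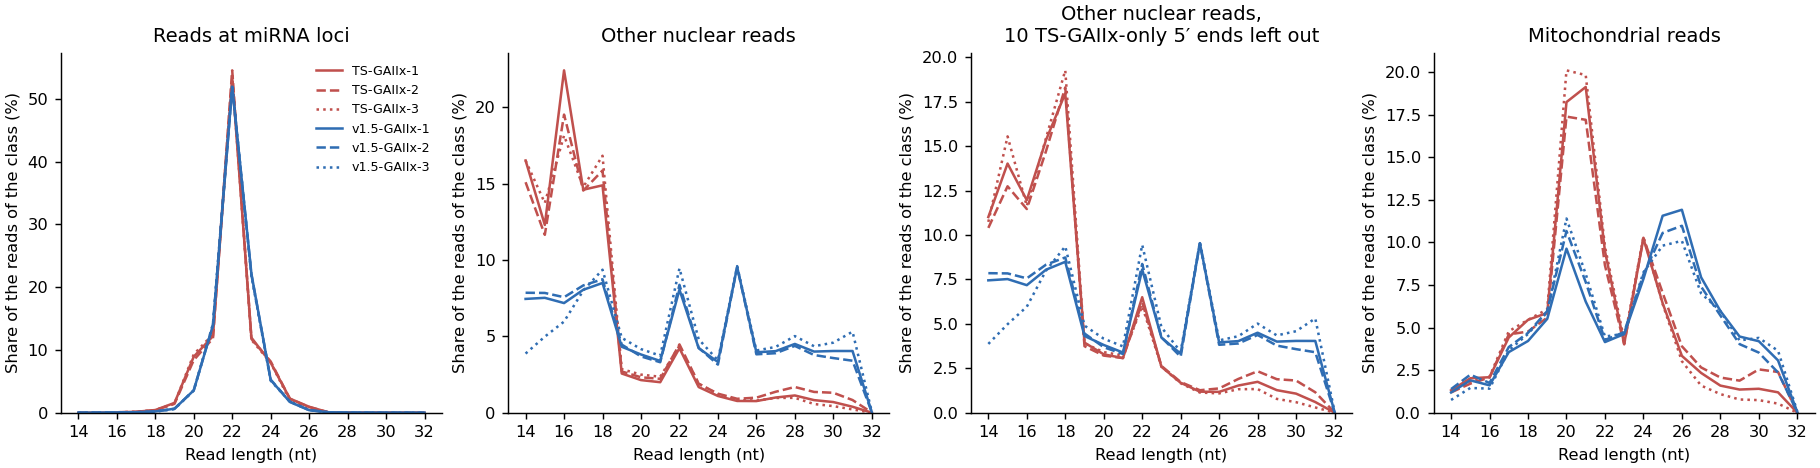
Share of reads (y axis, percent of the class) by read length (x axis, nt) for reads at miRNA loci, other nuclear reads, the same without 10 5′ ends seen in TS-GAIIx alone, and mitochondrial reads; each line is 1 library. The TS-GAIIx lines of other nuclear reads peak at 18 nt and below, whereas the v1.5-GAIIx lines have a peak at 25 nt.

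The small shift at miRNA loci hid larger shifts at single lengths. The 22-nt class held 53.9% ± 0.602 (SD, n = 3) of miRNA reads in TS-GAIIx and 52.0% ± 0.218 in v1.5-GAIIx. This direction turned without miR-375-3p, at 42.2% ± 0.12 against 48.7% ± 0.141, and with exact alignments alone the groups overlapped at means of 55.3% and 55.9%. The 21-nt class went from a mean of 12.2% to 14.02%, and without miR-375-3p from 15.5% to 14.8%. The 23-nt class held 11.96, 11.8 and 11.6% in TS-GAIIx and 22.1, 22.0 and 21.8% in v1.5-GAIIx. Lengths of 20 and of 24 nt went the other way, with means of 8.87% against 3.56% and of 8.04% against 5.20%. Among mitochondrial reads the 21-nt class had a mean of 18.7% in TS-GAIIx and 7.45% in v1.5-GAIIx, and the 26-nt class one of 3.42% and 11.001%. Apart from the alternative named, none of these groups overlapped.

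The shifts were far smaller with each distinct alignment counted once, whatever its reads. At miRNA loci the 23-nt class then held 17.6% against 18.4%, the 21-nt class overlapped at 13.98% and 14.2%, the 20-nt class turned to 7.26% against 7.73%, and the 24-nt class overlapped at 12.9% and 13.1%. Among mitochondrial alignments the 21-nt class held 7.37% against 6.41% and the 26-nt class 4.93% against 6.29%.

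Single miRNAs moved in both directions. In limma on mean length, 121 miRNAs were longer and 97 shorter in v1.5-GAIIx at a Benjamini-Hochberg adjusted p under 0.05, so that 84.5% of the 258 tested were called, 46.9% longer and 37.6% shorter. The median absolute difference was 0.194 nt, and 13 miRNAs differed by more than 1 nt. The commonest length was equal in both protocols for 187 miRNAs. It was 1 nt longer in v1.5-GAIIx for 27 and 1 nt shorter for 26. Steps of 2 nt were seen in 9 and 4 miRNAs and steps of 3 nt in 3 and 2, longer and shorter in turn.

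miR-141-3p, an epithelial miRNA of the miR-200 group that targets the Zeb repressors, changed its commonest form. Its 21-nt form took 82.9, 82.9 and 84.3% of its reads in TS-GAIIx and 7.62, 7.39 and 7.63% in v1.5-GAIIx. Its 23-nt form took 7.73, 7.82 and 6.97% against 72.9, 72.1 and 72.1%. It was 1.59 nt longer on average (SE 0.00967, limma adjusted p = 4.11e-11), and miR-200a-3p, with the same seed, was 0.61 nt longer (adjusted p = 2.04e-08).

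miR-879-5p showed the reverse. Its 22-nt form took 87.1, 86.9 and 86.6% in TS-GAIIx and 5.98, 6.13 and 6.74% in v1.5-GAIIx, where the 20-nt form took 65.6, 65.9 and 65.0%. Mean length fell by 1.5001 nt (SE 0.00813, limma adjusted p = 3.77e-11). No library of either group came near the other for either miRNA.

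miR-27b-3p, known for targeting lipid-metabolism genes, was read mostly at 20 nt in TS-GAIIx (64.1, 63.0 and 63.7%) and mostly at 21 nt in v1.5-GAIIx (60.6, 60.5 and 61.2%). miR-27a-3p differs from it by 1 base and was also longer, by 1.03 nt (adjusted p = 1.95e-09). Its reads of 18 nt, with means of 31.2% and 4.21%, end before that base and cannot be told apart from those of miR-27b-3p, so this length difference is uncertain. miR-30e-5p had 90.5, 90.8 and 90.7% of its reads at 24 nt in TS-GAIIx and 43.1, 43.3 and 41.8% in v1.5-GAIIx, where 40.2% were 23 nt long. miR-26a-5p was read at 20 nt in 0.378, 0.319 and 0.330% of TS-GAIIx reads and in 26.5, 26.0 and 26.2% of v1.5-GAIIx reads.

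miR-136-5p and miR-300-3p, of the imprinted Dlk1-Dio3 cluster, were longer in v1.5-GAIIx by 0.93 and 0.65 nt. miR-148b-3p and miR-301b-3p were shorter by 0.93 and 0.89 nt. For miR-148b-3p this rested on reads with a mismatch, since exact alignments alone gave a difference of 0.17 nt in the other direction. The beta cell miRNA miR-375-3p was 0.05 nt longer (adjusted p = 3.95e-05), and miR-7a-5p, at 23.7 nt in all 6 libraries, was not called (difference -0.0024 nt, SE 0.00755, adjusted p = 0.767).

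**Figure D2:**
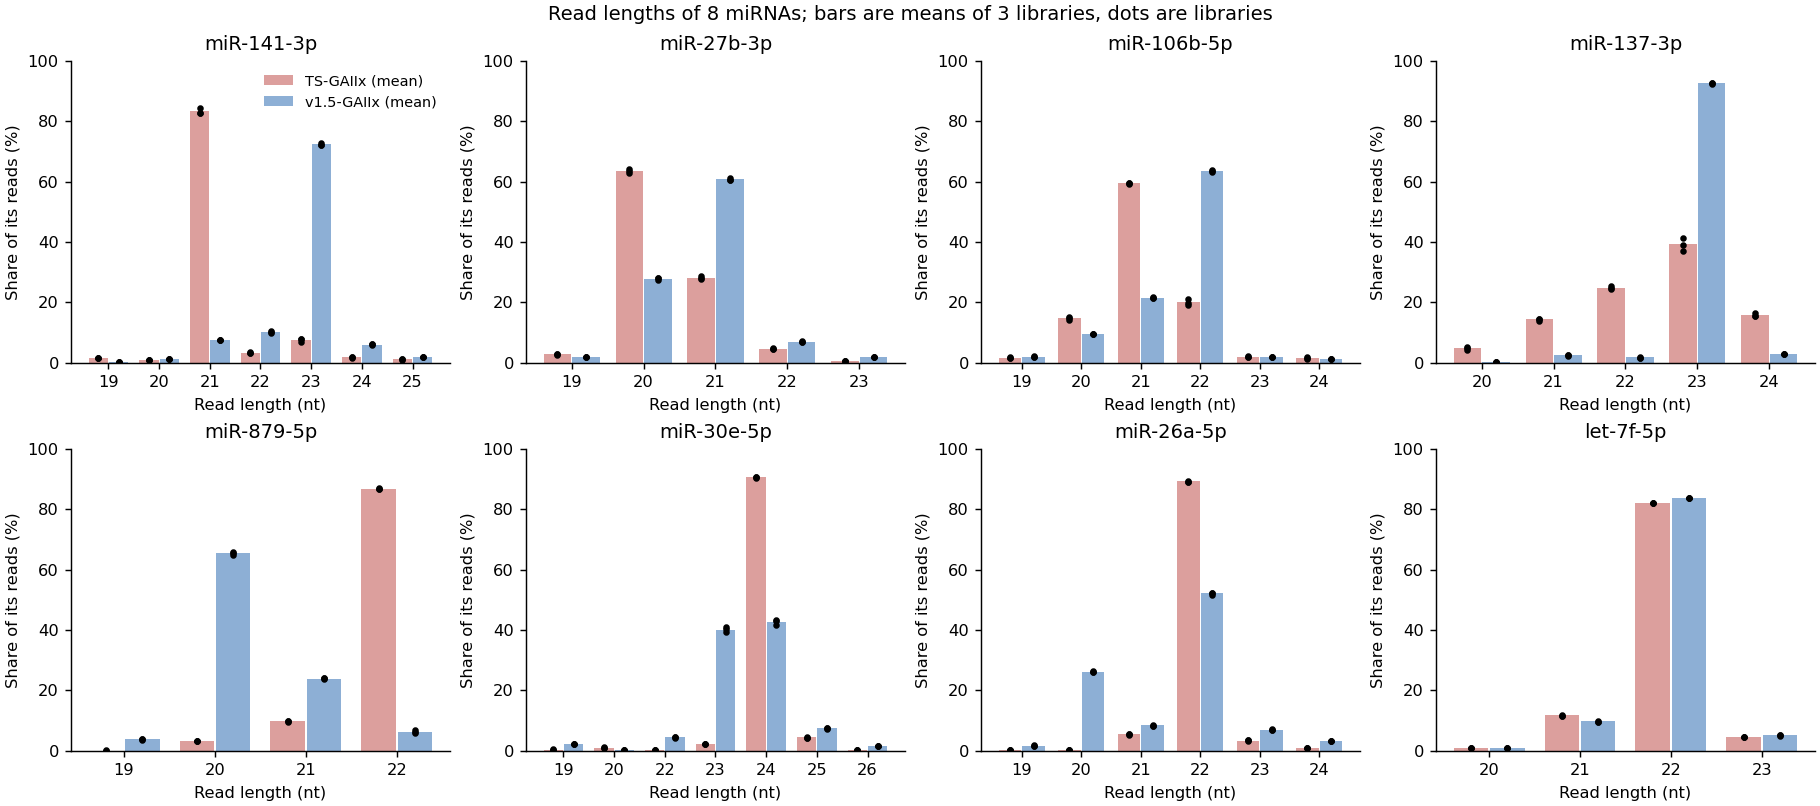
Share of each miRNA's reads (y axis, percent) at each read length (x axis, nt) for 8 miRNAs; bars are means of 3 libraries and dots are libraries. The tallest bar sits at 21 nt in TS-GAIIx and at 23 nt in v1.5-GAIIx for miR-141-3p, whereas both protocols have it at 22 nt for let-7f-5p.

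The share of reads at the length that was commonest over all 6 libraries was higher in v1.5-GAIIx for 91 miRNAs (35.3%) and lower for 134 (51.9%), with 87.2% called in all (limma on log2 ratios). miR-137-3p, a miRNA abundant in brain, had 37.2, 41.2 and 39.2% of reads at 23 nt in TS-GAIIx and 92.9, 92.6 and 92.4% in v1.5-GAIIx. The log2 ratio of dominant to other lengths rose by 4.28 (SE 0.0630, adjusted p = 8.41e-12). miR-152-3p rose by 3.54 and miR-106b-5p by 2.81 on the same scale, and with exact alignments alone another length was dominant for miR-106b-5p and its value was -2.57. miR-30b-5p and miR-30c-5p fell by 4.39 and 3.78. let-7f-5p, an abundant let-7 member, moved little: 82.3, 82.2 and 82.2% of its reads were 22 nt long in TS-GAIIx and 83.9% in each v1.5-GAIIx library.

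Families are set here beside the 46.9% of all 258 miRNAs called longer and the 37.6% called shorter. All 9 tested members of the let-7 5p family were longer on average in v1.5-GAIIx, by 0.019 to 0.29 nt. The commonest length of let-7i-5p and of miR-98-5p nevertheless went from 22 nt in TS-GAIIx to 21 nt in v1.5-GAIIx. The 3 members of the family of miR-148a and miR-152 were shorter, by 0.19 to 0.93 nt. The largest of these differences, that of miR-148b-3p, turned sign with exact alignments alone. Of the 5 3p strands with the seed of let-7b-3p, 4 were shorter too, and miR-98-3p was not called. Among these 4, let-7a-1-3p and let-7c-2-3p had almost equal levels (means of 65.97 and 65.94 RPMM), as reads divided between places have. They are therefore not separate observations. Of the let-7 3p strands with other seeds, let-7d-3p and let-7e-3p were shorter and let-7i-3p was 0.20 nt longer. miR-26a-5p was 0.49 nt shorter and miR-26b-5p 0.16 nt longer, although they share a seed.

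Described by the last 2 bases of exact reads, forms ending in CU had smaller shares in v1.5-GAIIx. Of 75 such forms in 67 miRNAs, 56 were lower in every v1.5-GAIIx library than in every TS-GAIIx library, and the median log2 ratio of shares was -0.73. Over all 794 forms, 46.3% were lower without overlap and 43.8% higher. Forms ending in AG, GC and GG had medians of 0.87, 0.75 and 0.56, and those in UG a median of -0.41. Ends summed over all exact miRNA reads also depend on miRNA levels. There G was last in 20.3% in TS-GAIIx and 13.3% in v1.5-GAIIx on average, and U in 41.8% and 54.9%, without overlap. The values for forms are descriptions, because forms of a miRNA share its total and are not independent.

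The named miRNAs hold such ends. The 22-nt form of miR-879-5p and of miR-26a-5p and the 24-nt form of miR-30e-5p ended in CU. The forms that gained most in v1.5-GAIIx ended in GC for miR-879-5p and miR-30e-5p and in GG for miR-26a-5p, and only that of miR-879-5p became the commonest. In miR-141-3p and miR-27b-3p the form with most reads ended in UG in TS-GAIIx and in GC in v1.5-GAIIx.

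Reads whose last base mismatched the genome made up 10.8, 11.1 and 10.7% of miRNA reads in TS-GAIIx and 8.09, 8.14 and 8.13% in v1.5-GAIIx. With miR-375-3p included, the largest difference by base was that of G, which ended 4.02, 4.35 and 4.10% of miRNA reads in TS-GAIIx and 0.114, 0.113 and 0.113% in v1.5-GAIIx. A mismatching A ended 1.79, 1.81 and 1.77% against 2.58, 2.59 and 2.62%, and a mismatching C 0.153% against 0.134% on average. In each of these 3 letters the groups did not overlap.

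Most of the G reads of TS-GAIIx belonged to miR-375-3p, the abundant beta cell miRNA that restrains insulin secretion. A 22-nt form of it with a final G in place of the genomic A took 15.2, 15.3 and 15.4% of its reads in TS-GAIIx and 0.0232, 0.0241 and 0.0195% in v1.5-GAIIx. A form of the same kind took 9.83% against 0.0814% of miR-125a-5p and 8.94% against 0.0291% of miR-125b-5p, which share a seed. These 3 forms ended in UGG, as did 95.3, 95.9 and 95.9% of all G-mismatch reads in TS-GAIIx and 5.61, 5.95 and 5.15% in v1.5-GAIIx. The bases before the G could be read only where it was the single mismatch of a miRNA with a known sequence, which held for 97.9 to 98.3% of these reads in TS-GAIIx and 53.8 to 56.8% in v1.5-GAIIx, so the shares are lower bounds.

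Without miR-375-3p the largest difference was that of A, at 1.71, 1.76 and 1.68% against 2.597, 2.61 and 2.64%. Leaving it out kept the direction of G, at 0.399, 0.386 and 0.355% against 0.122, 0.121 and 0.123%. Then 53.4, 52.2 and 51.6% of the G-mismatch reads of TS-GAIIx ended in UGG, against 3.77, 3.82 and 3.35%, with 85.9 to 88.02% and 53.1 to 56.3% of them readable. UGG forms of miR-433-3p, miR-652-3p, miR-324-5p, miR-325-5p and miR-210-3p held 1.07 to 2.68% of their reads in TS-GAIIx and 0.0180 to 0.0899% in v1.5-GAIIx, as means. The reverse was seen for miR-361-5p, whose G mismatch took 0, 0.569 and 0.280% against 3.37, 3.15 and 2.61%. miR-361-5p was named after its values were seen.

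**Figure D3:**
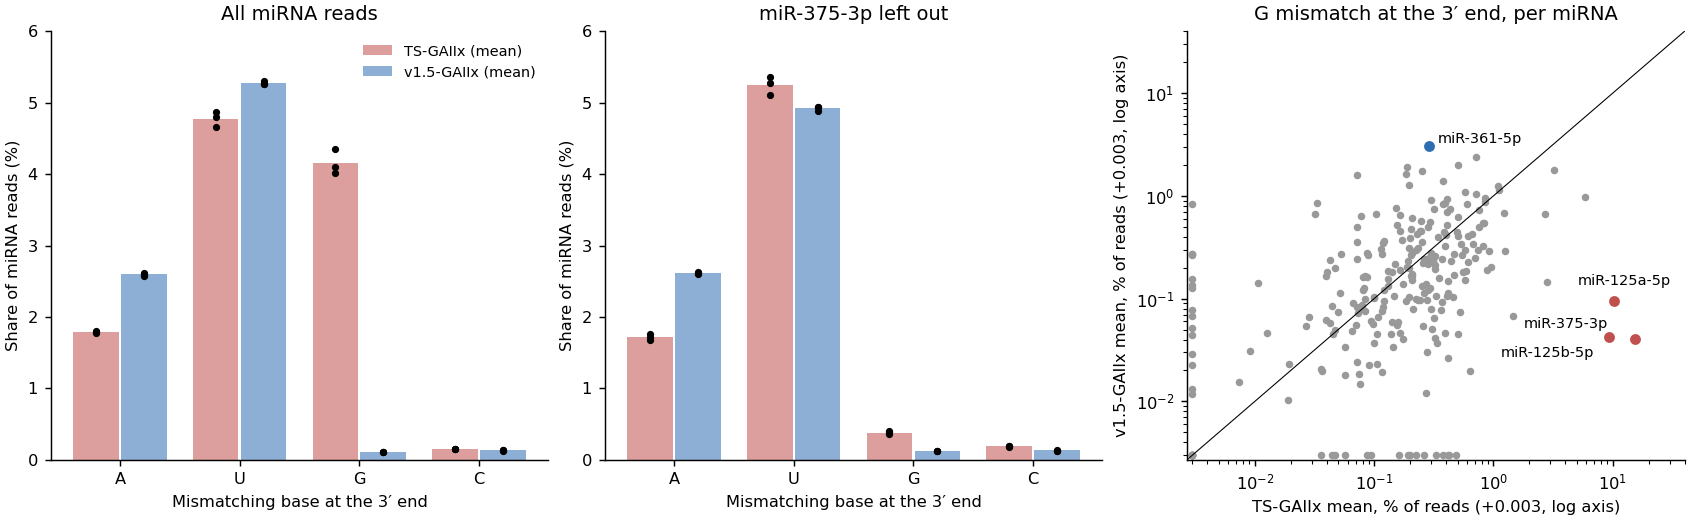
Left and middle, share of miRNA reads (y axis, percent) whose last base mismatches, by that base, for all miRNAs and without miR-375-3p; bars are means of 3 libraries and dots are libraries. Right, share of reads with a mismatching final G per miRNA (log axes, percent), with miR-375-3p, miR-125a-5p and miR-125b-5p far below the line of equality and miR-361-5p above it.

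For U the direction depended on miR-375-3p. A mismatching U ended 4.87, 4.80 and 4.66% of all miRNA reads in TS-GAIIx and 5.26, 5.30 and 5.26% in v1.5-GAIIx. Without miR-375-3p the values were 5.28, 5.36 and 5.10% against 4.95, 4.94 and 4.88%, so that the sign turned. For all 4 bases together the sign turned too, at 7.58, 7.70 and 7.32% against 7.80, 7.80 and 7.77% without miR-375-3p. miR-375-3p itself had 3.58, 3.22 and 3.32% of reads with a mismatching U in TS-GAIIx and 8.23, 8.37 and 8.28% in v1.5-GAIIx (limma log2 difference 1.37, SE 0.0539, adjusted p = 4.13e-06).

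Across miRNAs, last-base mismatches of any kind were called higher in 99 (38.4%) and lower in 98 (38.0%), or 76.4% in all. Split by base, A was higher in 110 (42.6%) and lower in 54 (20.9%), or 63.6% in all, and U higher in 87 (33.7%) and lower in 95 (36.8%), or 70.5%. G was higher in 38 (14.7%) and lower in 71 (27.5%), or 42.2%, and C higher in 39 (15.1%) and lower in 46 (17.8%), or 32.9%. The count for C depended on the reads added before taking logs, since 161 (62.4%) were called with 5 reads in place of 0.5. let-7i-5p rose with A and U alike: any mismatch took 5.56, 5.75 and 5.37% of its reads in TS-GAIIx and 30.4, 30.3 and 30.1% in v1.5-GAIIx. miR-98-5p, a let-7 relative, stood at 3.83, 3.95 and 3.73% against 22.6, 21.9 and 22.7%. let-7f-5p, by contrast, stood at 2.04, 2.14 and 2.05% against 2.78, 2.75 and 2.70%.

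Final A rose in miR-22-3p, miR-27b-3p and miR-191-5p. In miR-22-3p it took 0.197, 0.193 and 0.209% in TS-GAIIx and 2.70, 2.88 and 2.96% in v1.5-GAIIx (log2 difference 3.87, SE 0.0462, adjusted p = 1.80e-09). miR-27b-3p rose by 3.30 and miR-191-5p by 2.92 on this scale. Falls were seen in miR-29c-3p, from a mean of 5.67% to 0.695%, and in miR-152-3p, whose final A took 18.4, 19.3 and 18.5% against 3.66, 3.56 and 3.51%.

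Among miRNAs of at least 500 RPMM final U fell most in miR-137-3p, miR-344-3p and miR-434-5p, with log2 differences of -3.39, -3.34 and -3.28, and it fell in miR-130b-3p from 35.3, 34.9 and 34.7% to 8.16, 7.93 and 8.25%. It rose in miR-181a-5p, from 0.903, 0.972 and 0.811% to 6.09, 6.52 and 6.14%. miR-24-3p, with 31.3, 32.9 and 32.2% of reads ending in a mismatching U in TS-GAIIx and 32.8, 33.1 and 33.2% in v1.5-GAIIx, was not called (adjusted p = 0.214). This large U share was thus read at overlapping values by both protocols.

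Mismatches inside the read, with the last 3 bases left out and all kinds together, overlapped between the protocols. They were found in 1.94, 2.35 and 0.829% of miRNA reads in TS-GAIIx and in 4.52, 1.33 and 1.38% in v1.5-GAIIx (two-sided exact permutation test, p = 0.8). Without v1.5-GAIIx-1 the difference changed from 0.702 to -0.353 percentage points. Of the 12 kinds of substitution, however, 10 were higher in every v1.5-GAIIx library than in every TS-GAIIx library, and v1.5-GAIIx-1 was the highest of its group for all 12. C-to-U changes took 0.0402, 0.0396 and 0.0388% of C bases in TS-GAIIx and 0.116, 0.0541 and 0.0548% in v1.5-GAIIx, and A-to-G changes 0.0234, 0.0234 and 0.0231% against 0.0708, 0.0338 and 0.03397% of A bases. A-to-C, which overlapped, took 0.274 and 0.383% of A bases in TS-GAIIx-1 and TS-GAIIx-2 and 0.0077% in TS-GAIIx-3, and position 4 was mismatched in 1.42% of reads of v1.5-GAIIx-1 against 0.0365 to 0.05002% in the other 5 libraries.

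At the first base of the read, mismatches took 0.0419, 0.0486 and 0.0456% in TS-GAIIx and 0.466, 0.167 and 0.165% in v1.5-GAIIx. Single seed sites differed among miRNAs. Positions are counted from 1 at the miRNA's 5′ end. A5G in miR-411-5p took 1.59, 1.49 and 1.43% in TS-GAIIx and 5.16, 5.23 and 5.48% in v1.5-GAIIx. A6G in miR-376c-3p took 4.56, 4.75 and 4.66% against 1.93, 2.599 and 2.85%, and A7G in miR-3099-3p overlapped (means 4.07% and 4.32%). A-to-G changes are the reads that ADAR editing of adenosine to inosine gives, and whether these sites are edited was not tested.

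Other sites matched a relative's sequence. C19U in miR-27a-3p, which turns it into the sequence of miR-27b-3p, took 27.8, 30.3 and 28.8% of the reads placed at miR-27a-3p in TS-GAIIx and 6.34, 6.09 and 5.68% in v1.5-GAIIx. miR-27b-3p itself stood at 72822, 72256 and 79270 RPMM in TS-GAIIx and 16222, 17140 and 18021 in v1.5-GAIIx. G18A in miR-30a-3p, which gives the sequence of miR-30e-3p, had means of 5.10% and 2.69%.

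Of 174 hairpins with reads on both arms, the 5p to 3p ratio was higher in v1.5-GAIIx for 87 (50%) and lower for 76 (43.7%) (limma on log2 ratios, 93.7% called), and the median absolute difference was 1.87 on the log2 scale. Both arms come from 1 precursor, so a ratio within a hairpin does not depend on scaling by depth. Some hairpins, such as the copies that give miR-24-3p, share divided reads, so the 174 are not all separate measurements. In Mir127, of the Dlk1-Dio3 cluster, the 5p arm took 0.149, 0.137 and 0.151% in TS-GAIIx and 6.52, 6.44 and 6.50% in v1.5-GAIIx (log2 difference 5.57, SE 0.0740, adjusted p = 1.42e-09). In Mir22 it took 0.0848, 0.101 and 0.0826% against 2.68, 2.98 and 3.89%.

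The other direction was as large. The 5p share of Mir152 was 18.1, 22.6 and 23.8% in TS-GAIIx and 0.253, 0.233 and 0.268% in v1.5-GAIIx, and that of the hypoxia-induced Mir210 was 19.95, 19.8 and 21.8% against 0.882, 0.746 and 0.791%. Mir24-2 fell from 33.2, 31.4 and 35.1% to 1.19, 1.18 and 1.21%, and Mir16-1 from 99.2, 99.3 and 99.3% to 82.6, 82.1 and 80.2%. miR-24-3p and miR-16-5p each have another genomic copy whose reads cannot be told apart, so the ratios of these hairpins are uncertain. Mir375, with at most 0.0063% on its 5p arm in any library, was not called (adjusted p = 0.0567).

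In 15 hairpins the arm with most reads in all 3 TS-GAIIx libraries was not the arm with most reads in any v1.5-GAIIx library. Mir409 had 3.82, 3.26 and 3.30% of its reads on the 5p arm in TS-GAIIx and 69.7, 67.4 and 71.1% in v1.5-GAIIx. Mir671 had 35.5, 36.0 and 35.7% against 96.7, 96.0 and 94.8%, and the most abundant of the 15, Mir872, had 41.0, 41.9 and 40.8% against 83.1, 83.1 and 82.8%. Mir126a, from an intron of the endothelial gene Egfl7, went from 90.1, 91.2 and 90.5% to 26.0, 27.3 and 27.5%. Mir369 went from 52.999, 56.0 and 54.3% to 6.07, 5.80 and 6.21%. Mir129-1, also among them, shares its 5p name with another miR-129 hairpin, so its ratio is uncertain. These 15 were found by their values and are a description.

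When miRNAs were summed by seed, 120 of 245 families (49.0%) were higher in v1.5-GAIIx and 43.7% lower (edgeR quasi-likelihood test, Benjamini-Hochberg adjusted p under 0.05, 92.7% called). Of 20 families on a fixed list, 11 were higher, 8 lower and 1 not called. let-7, which restrains growth genes, stood at 63516, 64031 and 64242 RPMM in TS-GAIIx and at 260640, 256160 and 265230 in v1.5-GAIIx, a log2 fold change of 2.03 (SE 0.0444, adjusted p = 2.39e-13). miR-24, a family of 1 member, rose from 800, 824 and 811 to 31109, 28233 and 27761 RPMM (5.16, SE 0.0624, adjusted p = 5.10e-15).

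The epithelial family of miR-200b, miR-200c and miR-429 rose by 2.54 on the log2 scale, and that of miR-141 and miR-200a by 1.5046. The families of miR-93 with miR-106b and of miR-103 rose by 3.40 and 3.38, miR-7 by 2.34 and miR-29, which targets collagens, by 1.84. The rises were 1.23 for miR-148a with miR-152, 1.05 for miR-23 and 0.73 for miR-378. The miR-26, miR-27, miR-125 and miR-181 families fell by 2.15, 2.06, 2.72 and 1.98, and those of miR-16, miR-25 and miR-130a by 1.17, 1.08 and 1.02.

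2 listed families lay near equality. The miR-30 family stood at 33886, 37787 and 38540 RPMM against 32847, 33440 and 33659, a log2 fold change of -0.14 (SE 0.0540, adjusted p = 0.0255). The miR-99b family stood at 4422, 4715 and 4936 against 4659, 4610 and 5220 and was not called (0.04, SE 0.0610, adjusted p = 0.519), with a negative sign under both other scalings. Those scalings shifted the median of all families by -0.0966 (TMM) and -0.145 (DESeq2 size factors) on the log2 scale.

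Members of a family moved apart. Of 86 members in 31 families, the share of the family was higher in v1.5-GAIIx for 38 (44.2%) and lower for 41 (47.7%) (limma, 91.9% called), and 28 families had called members in both directions. In a family of 2 members the differences mirror each other, so such calls are not independent. In larger families too the shares have a fixed sum, so a rise of any member forces a fall among the others. The count of 28 families is therefore largely set by the measure and is not separate evidence that members moved apart. miR-29b-3p made up 5.52, 4.83 and 4.72% of the miR-29 family in TS-GAIIx and 44.2, 42.7 and 41.5% in v1.5-GAIIx. Its level went from a mean of 309 to 9431 RPMM, whereas miR-29a-3p went from 4431 to 10327 and miR-29c-3p from 1416.5 to 2261.

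miR-200c-3p made up 34.9, 34.7 and 32.999% of its family against 78.3, 77.4 and 77.7%, and miR-200b-3p and miR-429-3p gave way to it. Within the miR-125 family miR-125a-5p fell from 98.7, 98.7 and 98.6% to 80.1, 79.4 and 77.6%. let-7i-5p held 14.7, 15.1 and 14.9% of let-7 in TS-GAIIx and 1.55, 1.63 and 1.62% in v1.5-GAIIx, and miR-98-5p 3.15% against 0.683%, while let-7a-5p went from 11.7% to 19.4% and let-7g-5p from 5.30% to 10.8%. In its family, miR-16-5p fell from 84.1, 83.7 and 84.1% to 43.3, 43.1 and 43.1% and miR-15a-5p rose from 2.36% to 32.02%.

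Not every family was rearranged. miR-7a-5p made up 72.8, 69.8 and 71.4% of miR-7 in TS-GAIIx and 73.5, 73.0 and 72.5% in v1.5-GAIIx (adjusted p = 0.0714), although the family rose. The shares of miR-146a-5p and miR-146b-5p also overlapped, at a mean of 39.5% against 38.7% for miR-146a-5p. In 28 of 31 families the 3 libraries of each protocol had the same leading member. That member differed between the protocols in 3 of these 28, among them the family of miR-93 and miR-106b. There miR-93-5p led in TS-GAIIx (56.3, 57.6 and 56.8%) and miR-106b-5p in v1.5-GAIIx (63.6, 64.2 and 63.2%).

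**Figure D4:**
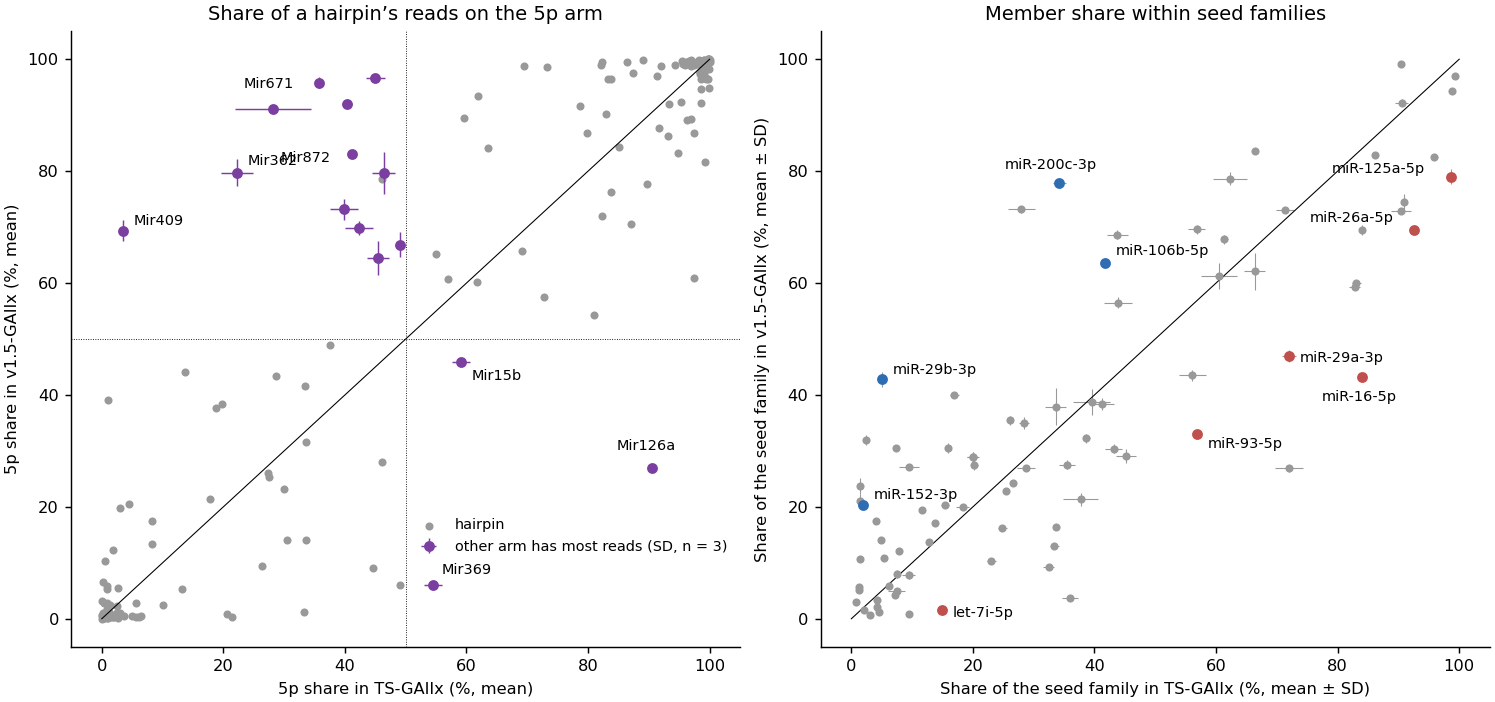
Left, share of a hairpin's reads on the 5p arm (percent, mean of 3 libraries) in TS-GAIIx (x axis) and v1.5-GAIIx (y axis), with the 15 hairpins whose leading arm differs in purple with SD. Right, share of its seed family that each member holds (percent, mean ± SD, n = 3), where miR-29b-3p and miR-200c-3p lie above the line of equality and miR-16-5p and miR-125a-5p below it.

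Differences in level are described here by base composition, without a test. Over 281 miRNAs with a mature sequence and at least 10 RPMM on average, the median log2 ratio (v1.5-GAIIx to TS-GAIIx) was 0.18. It was -0.43 for the 79 miRNAs with G and C above 50% of their first 20 bases and 0.64 for the other 202, with wide overlap (quartiles from -1.45 to 1.04 and from -0.67 to 2.05). By last base the medians were 0.91 for A, 0.86 for G, 0.16 for U and -0.20 for C, and these overlapped too, from -0.57 to 2.25 for A and from -1.49 to 0.95 for C.

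Reads outside miRNA loci made up 32.8, 29.5 and 29.4% of the summed counts in TS-GAIIx and 25.3, 24.5 and 21.4% in v1.5-GAIIx, with no overlap. The difference was -6.82 percentage points. With whole-number counts alone, which leaves out fractional counts of reads divided among places, it was -1.97 and the groups overlapped (18.7, 15.3 and 15.7% against 14.4, 15.7 and 13.6%). There were 10 5′ ends that each had at least 1000 RPMM in TS-GAIIx and no read in v1.5-GAIIx, and they held 11.3, 8.07 and 7.76% of the TS-GAIIx counts. Left out of both sums, the shares were 24.2, 23.3 and 23.4% against 25.3, 24.5 and 21.4%, a difference of 0.0847. This value is a description, because ends picked for their absence from v1.5-GAIIx can only raise it when left out, and ends read in v1.5-GAIIx alone were kept.

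The 10 ends held nested short reads. In mm9, 5 of them lay on the minus strand of chromosome 11, at 54148592 to 54148596, with commonest lengths of 14 to 18 nt and the same 3′ end at 54148579. Their source was not determined. The other 5, on chromosomes 6, 7, 8 and 11, held exact reads of 14 or 15 nt whose expected counts equalled, to the digits given, those of the exact 14-nt or 15-nt form on chromosome 11, as reads divided among several places have. Counts of the ends as a whole differed slightly, through other reads there. The 16-nt end alone stood at 49265, 33989 and 28852 RPMM, at least 144100-fold above the 0.259 RPMM that 3 counts are worth in the v1.5-GAIIx libraries. These ends were picked by their values.

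Without these 10 ends, other nuclear reads averaged 18.3, 18.7 and 18.004 nt in TS-GAIIx and 21.5, 21.2 and 22.2 nt in v1.5-GAIIx, so the difference in length remained, at 3.30 nt in place of 4.10 nt. With each distinct alignment counted once it was smaller, at 1.48 nt (means of 18.6 and 20.1 nt). By reads, the 18-nt class held 18.5% against 8.87% and the 25-nt class 1.20% against 9.56%. By distinct alignments, with the 10 ends kept, the 18-nt shares overlapped (7.74% against 7.4997%) and the 25-nt class held 2.72% against 3.55%.

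Of the 3049 5′ ends outside miRNA loci with at least 10 RPMM, 1380 (45.3%) were higher in v1.5-GAIIx and 1199 (39.3%) lower (edgeR, 84.6% called). Other scalings shifted the median log2 fold change of these ends by -0.0626 (TMM) and -0.209 (DESeq2 size factors). Small nucleolar RNAs, which guide the modification of rRNA, made up 0.248, 0.313 and 0.196% of counts in TS-GAIIx and 2.30, 2.24 and 2.04% in v1.5-GAIIx. Spliceosomal snRNAs had 0.0238% against 0.205% and rRNA 0.0309% against 0.0750% on average, without overlap. These classes hold only reads placed in annotated small RNA genes, and the nuclear rRNA genes of at least 10 RPMM were all copies of 5S rRNA. Nuclear reads not placed in such genes count as other nuclear reads, so the rRNA share is not that of all rRNA. The class with the Y RNAs Rny1 and Rny3, at 0.276% against 0.243%, overlapped.

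Most snoRNA reads of v1.5-GAIIx came from Snord60. It stood at 100, 120 and 75.8 RPMM in TS-GAIIx and at 14827, 15278 and 13238 in v1.5-GAIIx. Its main 5′ end, chr17:24665421 on the plus strand of mm9, had 9.78, 8.33 and 7.99 RPMM against 12969, 13474 and 11623 (edgeR log2 fold change 10.51, SE 0.168, adjusted p = 3.07e-06). There 99.9% of v1.5-GAIIx reads were 25 nt long, and 84.8% of the TS-GAIIx reads 26 nt. This gene held much of the 25-nt class described above. Without Snord60, chosen after its values were seen, that class held 0.836% of other nuclear reads in TS-GAIIx and 4.52% in v1.5-GAIIx, and the difference in mean length was 3.88 nt, or 3.09 nt without the 10 ends too.

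Other snoRNAs moved less. Snord21 stood at 22.1, 30.7 and 19.1 RPMM against 892, 628 and 528, and Snord2 at 705, 1000.2 and 408 against 2449.9, 1929 and 1804. Snord57, Snord14c and Snord85 were 3.83, 4.16 and 1.68 times as high in v1.5-GAIIx. The groups did not overlap for any of these 5, while Gm25855, a further snoRNA gene, overlapped at means of 548 and 612 RPMM.

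3 further ends had reads in v1.5-GAIIx alone. The 5S rRNA end placed at n-R5s71 (chr11:74133386, plus strand, mm9) had 395, 246 and 204 RPMM and none in TS-GAIIx, at least 743-fold above what 3 counts are worth. An end at chr6:102983956 (minus strand) had 761, 850.2 and 322.3 RPMM and one at chr4:39893733 (plus strand) 175, 120 and 55.6 RPMM. Copies of 5S rRNA and of the snRNAs are near-identical, so which copy such reads came from is uncertain.

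Mitochondrial reads made up 0.486, 0.520 and 0.479% of counts in TS-GAIIx and 0.835, 0.764 and 0.731% in v1.5-GAIIx. The transfer RNA gene mt-Ts2 stood at 110, 119 and 94.2 RPMM against 1850.2, 1474 and 1253. mt-Tq and mt-Tl1 were 5.20 and 4.98 times as high in v1.5-GAIIx and mt-Rnr1 1.56 times, whereas mt-Ts1 (46.2 against 28.8 RPMM) and mt-Rnr2 (2667 against 2312) were lower, without overlap. Reads of the minus strand outside named genes went from 1575, 1677 and 1525 to 2886, 2894 and 3052 RPMM.

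**Figure D5:**
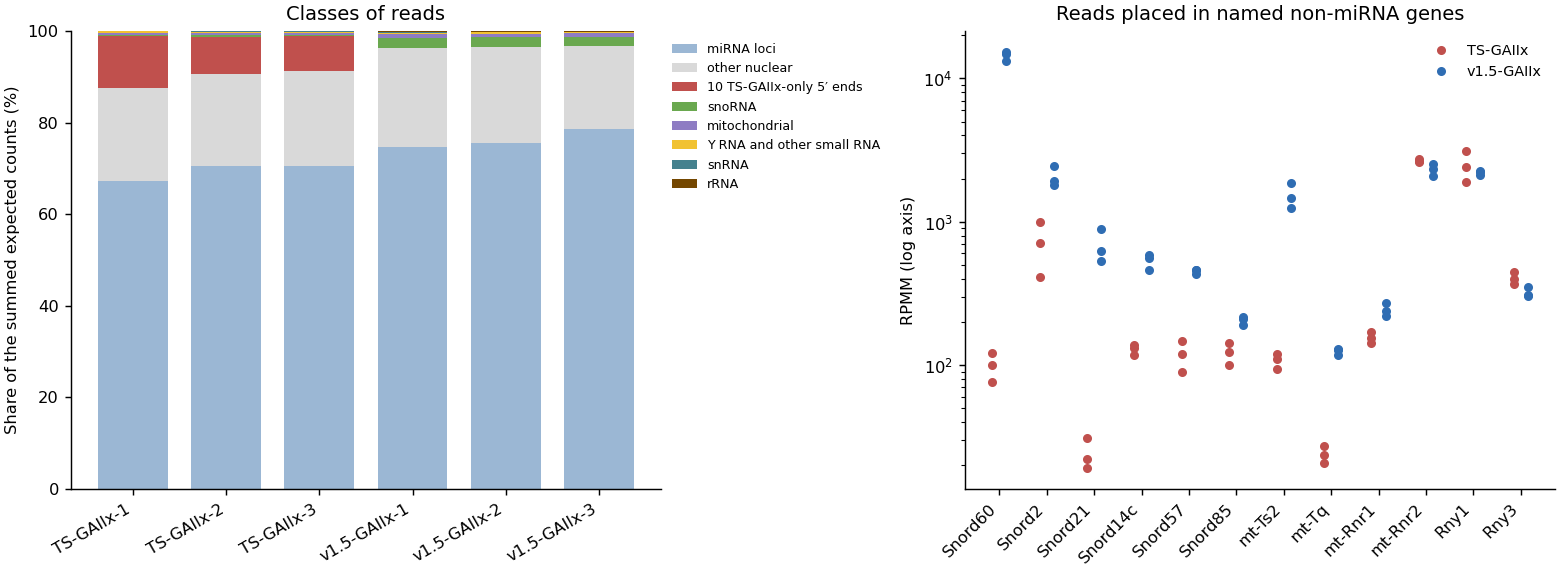
Left, share of the summed expected counts (y axis, percent) by class of read in each library; the 10 TS-GAIIx-only ends (red) hold 7.76 to 11.3% of the TS-GAIIx counts. Right, RPMM (log axis) of 12 named non-miRNA genes per library, where Snord60, Snord21 and mt-Ts2 are higher in v1.5-GAIIx and Rny1 overlaps.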

How the data were processed

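The deposited files hold, for 1 library each, every distinct alignment with its position, edit string and expected count. Per the study's methods and the labels, the authors trimmed reads with cutadapt, aligned them (Bowtie and mm9 are named, versions not given in the sources used here) and divided each read evenly among equally good alignments to give these expected counts. Counts were not scaled. Here they were summed by 5′ end, length and edit string and divided by the study's mapped reads to give RPMM. The sums exceed the mapped reads by 3.47 to 4.39%, for a reason that was not found, so depth is known to within that. Intervals are replicate spread, and PCR reads without molecular identifiers are not independent molecules.

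With no mm9 genome used here, RefSeq hairpins and GENCODE M21 small RNAs were placed by the bases that edit strings report, which never equal the genomic base. 360 names came from RefSeq and 31 from the study's lists, joined by value (relative tolerance 3e-05) and used as names alone. Members, lists and named miRNAs were chosen with earlier results of these data known. Named miRNAs are the 5 with the largest called effect in each direction (at least 500 RPMM, 50 for other 5′ ends) plus a fixed list.

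Mean lengths and log2 ratios (0.5 reads added) were tested with limma 3.58.1, and families and 5′ ends with edgeR 4.0.16 on expected counts rounded to whole numbers, with mapped reads as library sizes and Benjamini-Hochberg adjustment over all features tested. Single values had two-sided exact permutation tests. DESeq2 1.42.0 served as an alternative (R 4.3.3, Python 3.11.15). On simulated data edgeR recovered 100% of 200 changed ends among 3049, with 0.246% of the rest called, and limma 94% of 100 among 258 miRNAs (0.633%). Every simulated end had the same dispersion between libraries, and far fewer ends were changed than were called in the data. These rates therefore need not hold for the data. Libraries of a group differed by more than sampling noise, so none was a duplicate. Base-specific tests for G and C, the 10 TS-GAIIx-only ends and the values without miR-375-3p were added after the data had been seen.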

Additional observations from a re-analysis of the deposited data

How the results depend on the processing

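Depth limits rare forms: with 100 reads a share of 1% rests on 1 read, and the alternatives that admit thinner miRNAs or add reads change the counts for G and C most. Requiring 1000 reads in each library left fewer miRNAs to test, and calls numbered 120 for mean length, 118 for the dominant length, 111 for any last-base mismatch, 100 for U and 46 for member shares, while for A 80.5% of those left were called. With a mean of 10 reads and no minimum, 172 of 358 miRNAs (48.0%) were called for G and 145 (40.5%) for C. With 5 reads added, 161 of 258 (62.4%) were called for C. With ends of at least 1 RPMM, 11553 of 15317 non-miRNA ends (75.4%) were called.

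Among the differences over all reads that were recomputed, these turned sign: internal mismatches without v1.5-GAIIx replicate 1 (-0.353), the non-miRNA share without the TS-GAIIx-only ends (0.0847) and, with miR-375-3p left out, the U mismatch (-0.324) and the mismatch of any base (0.257). Among miRNA reads the 22-nt share became 6.47 and the 21-nt share -0.705 without miR-375-3p. The alternatives without miR-375-3p or these ends were chosen after the data had been seen. The 22-nt share became 0.629 with exact alignments alone, and the 20-nt and 24-nt shares 0.468 and 0.204 with each distinct alignment counted once. With exact alignments alone, mean length became 0.167 nt for miR-148b-3p, 0.00652 for miR-7a-5p and -0.00703 for miR-22-3p, and the dominant-length value of miR-106b-5p -2.57. With 5 reads added, any mismatch of miR-29b-3p became -0.0156. The miR-99b family became -0.0546 with TMM and -0.104 with DESeq2 size factors. The cause of these changes was not tested.

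Leaving out 1 library at a time gave 203 to 217 calls for mean length, 218 to 225 for dominant length, 222 to 226 for families and 2460 to 2575 for other ends. Ranges of values that crossed 0 were -0.00709 to 0.00265 nt for mean length of miR-7a-5p, -0.103 to 0.128 for G in miR-182-5p, -0.167 to 0.103 for C in let-7b-5p, -0.0177 to 0.0801 for the miR-99b family and -0.353 to 1.24 for internal mismatches. Of the tests of named features under all alternatives, 2392 kept direction and call, 35 lost it, 16 gained it and 13 turned sign.

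The labels do not say whether same-numbered libraries share RNA, and so few libraries cannot settle it. Over miRNA levels, deviations from the group mean correlated at 0.0238, -0.0906 and 0.156 between same-numbered libraries. Between other libraries of the 2 protocols they correlated at -0.114 to 0.164. With a replicate block, 219 miRNAs were called for mean length, 228 families and 2541 other ends, and no count moved by more than 1.5 times.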
